A study of Mus musculus with 6 samples.

Results

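The genes described are 59 genes of ribosome biogenesis and the nucleolus, taken as the rows of the deposited expression table whose symbol equals 1 of a fixed list of names. All 59 were found among the 52183 genes of the table. The names belong to RNA polymerase I, the processing and modification of ribosomal RNA and nucleolar proteins, and they were put together with earlier results of these data known. RNA sequencing was done on haematopoietic stem cells sorted by flow cytometry from the bone marrow of female mice aged 4 months. There were 3 control libraries and 3 labelled Thbs1 knockout. No treatment is named for either group, and which part of Thbs1 was deleted, the driver of the deletion, the strain and any pooling of animals are not stated in the labels. Levels are given in FPKM (mapped fragments per kilobase of exon, in every 1000000). A level compared between genes thus also depends on the exon length it is divided by.

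Ribosomes are built in the nucleolus. RNA polymerase I copies the ribosomal DNA into a long precursor, small nucleolar ribonucleoproteins and free enzymes modify it, and assembly factors fold and cut it into the RNAs of the small and large subunits. In blood stem cells protein synthesis is known to be held low, and the transcription factor MYC is a known activator of these genes in growing cells.

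The libraries held between 22710000 and 30920000 reads, estimated from the steps between low FPKM values of short genes. Thbs1, the targeted gene, stood at 4.12, 13.8 and 2.33 FPKM in controls 1 to 3 and at 10.8, 8.50 and 7.68 FPKM in knockout-labelled libraries 1 to 3. It was thus not lower in the libraries labelled knockout (log2 change 0.65 ± 0.43 SE, limma adjusted p = 0.503), although without control library 2 it was higher (1.26, limma adjusted p = 0.0343). The exact two-sided permutation test gave p = 0.5, where 3 against 3 cannot go below 0.1. Directions below therefore rest on the labels. Of 12 stem and progenitor markers all 12 averaged at least 1 FPKM, and Ly6a, which encodes Sca-1, was called lower (log2 change -0.58, limma adjusted p = 0.0286). Of 7 markers of later progenitors 4 averaged under 1 FPKM, but Prtn3 stood at 58.5 to 93.5 FPKM in every library. Of 8 neutrophil and macrophage markers 7 averaged under 1 FPKM, but Lyz2 stood at 325 to 383 FPKM. Under 1 FPKM on average were also 4 of 6 T and natural killer cell markers (Cd3d, Cd3e, Cd3g and Trac) and 4 of 6 B cell markers. Of the other B cell markers Cd79b stood at 23.3 to 29.6 FPKM in every library and Vpreb1 had group means of 1.28 and 1.60 FPKM. The 7 megakaryocyte markers summed to 405 to 513 FPKM in control libraries and to 294 to 405 in knockout-labelled ones. The 9 erythroid markers summed to 95.7 to 116 and to 60.9 to 129 FPKM, with Hbb-bt called lower (-1.61, limma adjusted p = 0.00247). The summed level of 9 cell cycle markers was 414 to 450 FPKM in control libraries and 350.3 to 413 in knockout-labelled ones. This difference was carried mainly by Pcna, the single marker called, lower. Pcna stood at 120, 115 and 152 FPKM in controls 1 to 3 and at 77.6, 88.2 and 87.8 FPKM in knockout-labelled libraries 1 to 3. The median log2 change of the 9 markers was -0.02. The summed level of 6 T and natural killer cell markers was 74.5 to 101 FPKM and 52.2 to 63.9 FPKM, carried mainly by Nkg7, which was called lower. The part of these shifts in the results on ribosome biogenesis was not tested. The labels do not say that libraries came from separate animals, so p-values reflect the spread of these libraries alone, which may be technical.

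Of 58 ribosome biogenesis transcripts that could be tested, 4 rose in the libraries labelled knockout and 54 did not pass the test. The 4 that rose were Nat10, Nop2 and Ftsj3, which encode enzymes that chemically modify ribosomal RNA, and Nob1, which encodes the endonuclease that makes the last cut of the small subunit RNA. Their mean levels rose 1.43-fold, 1.38-fold, 1.34-fold and 1.26-fold. No tested member was called lower: the fitted change was above 0 in 53 and below 0 in 5. Over all tested genes 0.566% were called higher and 0.996% lower, and 53.4% had a fitted change above 0. With 1 library left out, between 0 and 2 members were called. In bulk RNA, a change in the share of cells that hold a transcript and a change in the amount per cell cannot be told apart.

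The sequences before the start sites of these 4 genes are shown because they are the members that passed the test. They are the 250 bases upstream of the start site of each gene in RefSeq (build GRCm38.p6), read in the direction of the gene. Capitals mark matches on either strand to CACGTG (the E-box bound by MYC and its partner MAX), CCGGAAG (the core bound by ETS factors), GGGCGG (a GC box) or TATAAA (the TATA box). No searched motif is contained in another.
Nat10, chr2:103761271-103761520, minus strand: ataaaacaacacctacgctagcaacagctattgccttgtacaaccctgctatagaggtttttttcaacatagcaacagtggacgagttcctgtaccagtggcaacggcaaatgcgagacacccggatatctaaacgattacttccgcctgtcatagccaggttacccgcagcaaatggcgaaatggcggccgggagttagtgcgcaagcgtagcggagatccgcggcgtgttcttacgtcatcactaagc
Nop2, chr6:125131633-125131882, plus strand: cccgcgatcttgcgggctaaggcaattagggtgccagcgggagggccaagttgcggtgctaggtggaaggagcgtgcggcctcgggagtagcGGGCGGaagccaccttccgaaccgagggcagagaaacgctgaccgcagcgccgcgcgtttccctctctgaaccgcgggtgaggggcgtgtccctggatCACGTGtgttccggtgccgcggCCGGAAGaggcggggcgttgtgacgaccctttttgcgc
Ftsj3, chr11:106256085-106256334, minus strand: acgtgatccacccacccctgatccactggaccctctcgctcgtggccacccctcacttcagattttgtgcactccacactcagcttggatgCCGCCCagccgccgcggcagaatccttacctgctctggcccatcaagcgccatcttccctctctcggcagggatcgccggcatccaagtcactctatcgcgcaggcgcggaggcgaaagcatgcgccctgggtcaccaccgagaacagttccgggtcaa
Nob1, chr8:107425039-107425288, minus strand: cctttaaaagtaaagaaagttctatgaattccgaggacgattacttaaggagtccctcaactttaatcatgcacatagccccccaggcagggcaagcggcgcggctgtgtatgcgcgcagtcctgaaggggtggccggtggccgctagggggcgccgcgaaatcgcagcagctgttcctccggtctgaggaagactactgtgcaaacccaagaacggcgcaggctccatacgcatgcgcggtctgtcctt
The windows of Nat10 and Nob1 held none of the 4 motifs, that of Ftsj3 held the GC box, and that of Nop2 held the E-box, the ETS core and the GC box, with the E-box starting at position -60 from the start site.

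The design compares control with Thbs1 knockout cells, to find transcripts that change with the deletion. The comparison was made with limma on log2(FPKM + 1), on which changes of low genes look smaller than they are, over the 12555 genes that reached 1 FPKM in at least 3 libraries. Of the 59 members 58 passed this filter, and 4 were higher and 0 lower at a Benjamini-Hochberg adjusted p below 0.05. Over all tested genes 0.566% were called higher and 0.996% lower. Without adjustment, 29 of the 58 members had a p below 0.05 and were higher, and 0 were lower, where 8.92% of all tested genes were higher and 7.46% lower by this measure. In 32 of 58 members every library labelled knockout lay above every control library, and in 0 the reverse held, where the shares over all tested genes were 12.6% and 10.1%. Since the list was made with earlier results known, these shares describe it and are no test of it. The fitted change was above 0 in 53 members and below 0 in 5 (on the TPM scale described further on, in all 59 and in 0), whereas it was above 0 in 53.4% of all tested genes. The median log2 change of the members was 0.18, with a range from -0.12 to 0.49, and that of all tested genes was 0.01. Among the 8175 genes with a mean of at least 5 FPKM, a range that holds every tested member, the median was 0.04 and 59.7% were above 0.

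**Figure D1:**
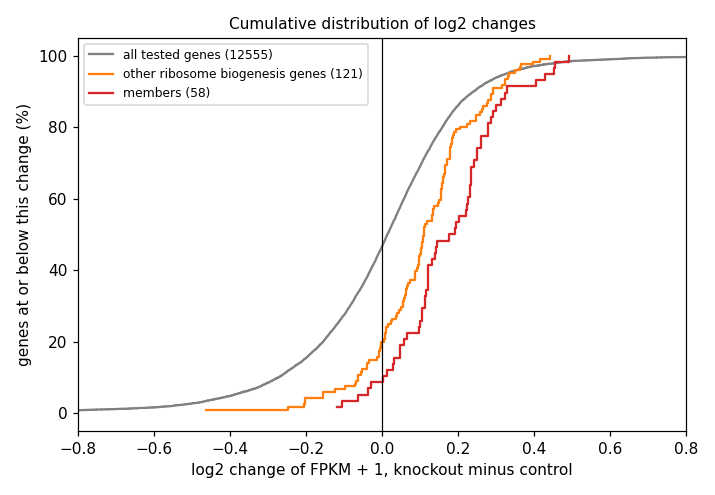
Cumulative share of genes (vertical axis, percent) at or below each log2 change of FPKM + 1, knockout-labelled minus control (horizontal axis), for the 58 tested members, 121 other ribosome biogenesis genes and all 12555 tested genes. The curve of the members lies to the right of that of all tested genes over most of its course, with medians of 0.18 and 0.01, and the other ribosome biogenesis genes lie between them with a median of 0.11.

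Nat10 (ENSMUSG00000027185, chromosome 2, 103721256 to 103761270, GRCm38) encodes the acetyltransferase that makes N4-acetylcytidine on the small subunit RNA. It stood at 14.0, 14.5 and 12.4 FPKM in controls 1 to 3 and at 19.0, 19.8 and 19.9 FPKM in knockout-labelled libraries 1 to 3. All 3 knockout-labelled libraries lay above all controls, and the knockout-labelled values lay close together. The means were 13.6 ± 1.10 and 19.6 ± 0.521 FPKM (SD, n = 3 each; log2 change 0.49 ± 0.09 SE, limma adjusted p = 0.0279), with between 2026 and 4218 reads behind each value.

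Nop2 (ENSMUSG00000038279, chromosome 6, 125131909 to 125144753) encodes a methyltransferase of cytosine in the large subunit RNA. Its values were 45.1, 46.2 and 43.5 FPKM in controls 1 to 3 and 55.5, 66.4 and 64.6 FPKM in knockout-labelled libraries 1 to 3. The groups did not overlap, and knockout-labelled library 1 was the nearest to the controls. The means were 44.9 ± 1.35 and 62.1 ± 5.82 FPKM (log2 change 0.46 ± 0.08 SE, limma adjusted p = 0.0309).

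Ftsj3 (ENSMUSG00000020706, chromosome 11, 106249142 to 106256079), which encodes a methyltransferase that acts on the sugar of the ribosomal RNA precursor, stood at 29.0, 28.7 and 30.3 FPKM in controls 1 to 3. In knockout-labelled libraries 1 to 3 it stood at 37.1, 39.3 and 41.2 FPKM. Every knockout-labelled library was again above every control. The means were 29.4 ± 0.845 and 39.2 ± 2.06 FPKM (log2 change 0.40 ± 0.07 SE, limma adjusted p = 0.0290).

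Nob1 (ENSMUSG00000003848, chromosome 8, 107412486 to 107425051) stood at 35.3, 36.1 and 35.3 FPKM in controls 1 to 3 and at 46.9, 44.3 and 43.5 FPKM in knockout-labelled libraries 1 to 3. The controls differed by less than 1 FPKM, and no knockout-labelled value came near them. The means were 35.6 ± 0.439 and 44.9 ± 1.77 FPKM (log2 change 0.33 ± 0.07 SE, limma adjusted p = 0.0466).

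These calls rest on all 6 libraries. When knockout-labelled library 1 was left out, Ftsj3 and Nop2 were called. When control library 1, 2 or 3 or knockout-labelled library 2 or 3 was left out, 0 members were called. Over these 6 fits the adjusted p of limma ran from 0.0532 to 0.104 for Nat10, from 0.0426 to 0.113 for Ftsj3, from 0.0151 to 0.116 for Nop2 and from 0.0958 to 0.136 for Nob1. Their log2 changes stayed between 0.30 and 0.54 in the same fits, and the count of all genes called higher fell from 71 to between 16 and 38. With no filter on low values, or with eBayes without an intensity trend, 0 members were called, and Nob1 also lost its call with a pseudocount of 0.1, the median of ratios or quantile normalization. Nat10 lies 14.4 Mb from Thbs1 on chromosome 2, and of the 230 tested genes within 20 Mb of Thbs1 9 were called higher (3.91%) and 12 lower (5.22%), against 0.566% and 0.996% of all tested genes. The other 3 called members lie on chromosomes 6, 8 and 11.

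**Figure D2:**
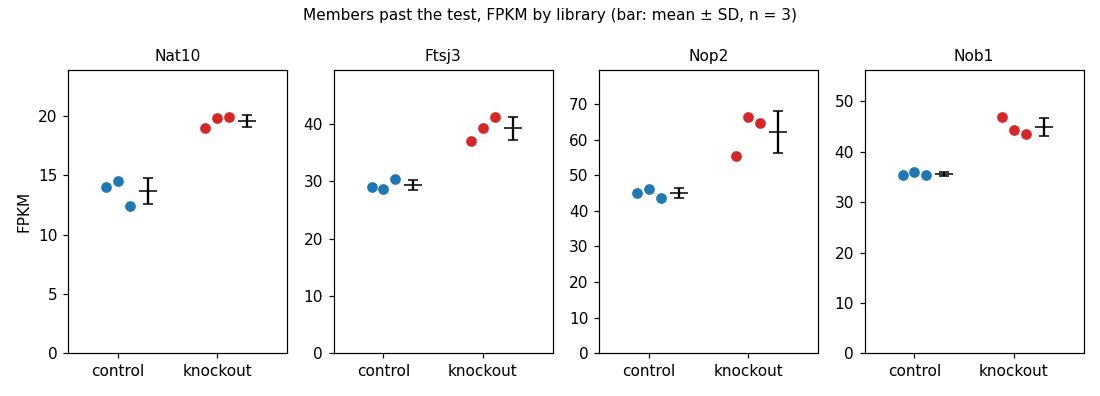
FPKM (vertical axes, from 0) of Nat10, Ftsj3, Nop2 and Nob1 in the 3 control and 3 knockout-labelled libraries (points), with the mean ± SD beside them. In each gene the 3 knockout-labelled points lie above the 3 control points.

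Dimt1 and Emg1, the other members placed in the group of free modification enzymes, were also higher in every knockout-labelled library than in any control. Dimt1, which dimethylates adenosines near the end of the small subunit RNA, stood at 12.5, 12.3 and 12.3 FPKM in controls 1 to 3 and at 14.7, 15.2 and 15.9 FPKM in knockout-labelled libraries 1 to 3. Its difference did not pass the test (0.29 ± 0.08 SE, limma adjusted p = 0.117), and 31.9% of its exon bases overlap exons of Kif2a on the opposite strand, which this library method does not separate. Emg1, a methyltransferase of a small subunit pseudouridine, had means of 31.3 ± 2.92 and 36.6 ± 1.67 FPKM (limma adjusted p = 0.228). In all 5 members of this group the 2 sets of libraries did not overlap, the median log2 change was 0.40, and 3 of 5 passed the test. Of all tested genes 12.6% did not overlap upwards and 0.566% were called higher. The members were chosen with earlier results known, so these counts describe the group and are no test of it. Fbl and Dkc1, which modify ribosomal RNA within guided particles, were placed in other groups. Their log2 changes were 0.14 and 0.07, and in both the 2 sets of libraries overlapped.

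Of 15 members that assemble the small subunit, 1 (Nob1) passed the test, 13 had fitted changes above 0, and in 8 the groups did not overlap. Among all tested genes 0.566% were called higher, 53.4% had a fitted change above 0 and 12.6% did not overlap upwards. Rrp12, an assembly factor needed for export of the small subunit, stood at 12.2, 10.5 and 11.1 FPKM in controls 1 to 3. It stood at 14.8, 16.5 and 15.1 FPKM in knockout-labelled libraries 1 to 3, a mean ratio of 1.38 that missed the threshold (limma adjusted p = 0.0546). Rrp9, which binds the U3 small nucleolar RNA, stood at 14.9, 17.0 and 19.3 FPKM and at 24.4, 25.1 and 21.5 FPKM in the same order. The groups did not overlap in Rrp9 either, but its libraries were more spread (log2 change 0.45 ± 0.10 SE, limma adjusted p = 0.0758). Rcl1, a member of the U3-containing processome, was the highest of these 15 transcripts in FPKM, at 82.7. It stood at 74.0, 75.3 and 76.1 FPKM and at 88.0, 94.3 and 88.6 FPKM (limma adjusted p = 0.0857). The 2 members with fitted changes below 0 were Utp20 and Nop14, whose groups overlapped.

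Of 20 tested members that assemble the large subunit, 0 passed the test by limma, 9 were higher at an unadjusted p below 0.05 and in 13 the groups did not overlap. The shares over all tested genes were 0.566% called higher, 8.92% higher at an unadjusted p below 0.05 and 12.6% not overlapping upwards. Nop16 stood at 66.7, 73.0 and 73.8 FPKM in controls 1 to 3 and at 86.9, 95.9 and 85.2 FPKM in knockout-labelled libraries 1 to 3 (0.32 ± 0.07 SE, limma adjusted p = 0.0737). Bop1, a subunit of the PeBoW complex that matures the large subunit RNAs, stood at 40.3, 41.3 and 41.7 FPKM and at 50.2, 48.6 and 51.6 FPKM. Its libraries were tight in both groups, and its difference (0.28 ± 0.06 SE) missed the threshold (limma adjusted p = 0.0752). The other PeBoW subunits stood at 44.1 ± 1.39 and 47.8 ± 0.530 FPKM (Pes1) and at 15.9 ± 0.147 and 17.4 ± 0.735 FPKM (Wdr12), with log2 changes of 0.11 and 0.12 that did not pass. Wdr12 stood below its partners per length in both groups, with 11955 bp of exon against 3024 bp (Pes1) and 2957 bp (Bop1). By the depth estimate between 4350 and 6199 reads lay behind its values, 3066 to 4510 for Pes1 and 2800 to 4592 for Bop1. The order thus depends on the exon length used. Nip7 had means of 35.9 ± 2.77 and 44.8 ± 2.09 FPKM (limma adjusted p = 0.0946). Noc2l, the highest of this group in FPKM, had means of 99.2 ± 3.20 and 116 ± 3.36 FPKM (limma adjusted p = 0.126). Wdr74 was the member that failed the filter, with values between 0.07 and 0.570 FPKM and between 3 and 27 reads in a library.

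Genes of RNA polymerase I transcription gave 0 called members by limma among 7, while all 7 had fitted changes above 0. Of these 7, 3 were higher at an unadjusted p below 0.05. For all tested genes the shares were 0.566% called higher, 53.4% above 0 and 8.92% higher at an unadjusted p below 0.05. Mybbp1a, a nucleolar protein that binds MYB and holds back polymerase I, stood at 64.6, 62.9 and 68.0 FPKM in controls 1 to 3 and at 74.8, 81.0 and 74.9 FPKM in knockout-labelled libraries 1 to 3. The groups did not overlap (0.23 ± 0.07 SE, limma adjusted p = 0.130). Polr1b, the second largest polymerase subunit, had means of 24.3 ± 1.42 and 28.8 ± 2.09 FPKM, and Polr1c, a subunit shared with polymerase III, 30.4 ± 2.42 and 35.9 ± 2.37 FPKM. The largest subunit, Polr1a, stood lower per length, at 6.47 ± 0.191 and 7.64 ± 1.04 FPKM. It has 11871 bp of exon, against 5805 bp in Polr1b and 2278 bp in Polr1c. The estimated reads were 1688 to 2691 for Polr1a, 3006 to 5297 for Polr1b and 1528 to 2574 for Polr1c. For all 3 subunits the ratio of means was 1.18, with limma adjusted p between 0.199 and 0.413. The initiation factors Ubtf and Rrn3 and the nucleolar protein Tcof1 had ratios of 1.08, 1.03 and 1.02, and the groups overlapped in all 3.

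The abundant nucleolar proteins and the cores of the small nucleolar ribonucleoproteins differed little in most members. Npm1, a nucleolar chaperone and the highest member, stood at 268, 272 and 321 FPKM in controls 1 to 3 and at 264, 343 and 320.3 FPKM in knockout-labelled libraries 1 to 3. Knockout-labelled library 1 was the lowest of all 6, and the groups overlapped (log2 change 0.10 ± 0.11 SE, limma adjusted p = 0.692). Ncl, which encodes nucleolin, stood at 80.0, 72.4 and 78.2 FPKM and at 64.7, 84.3 and 83.6 FPKM, with a log2 change of 0.00 ± 0.10 SE. Ddx21, an RNA helicase of the nucleolus, had means of 20.9 ± 1.12 and 20.5 ± 2.15 FPKM. Nolc1, a chaperone of small nucleolar ribonucleoproteins, stood apart from these with 40.6, 43.3 and 44.0 FPKM in control libraries and 48.7, 53.6 and 51.5 FPKM in knockout-labelled ones (0.26 ± 0.07 SE, limma adjusted p = 0.113).

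The box C/D particle guides methylation of ribosomal RNA. Among its core proteins Nop56 stood highest, at 100.2, 101 and 107 FPKM in controls 1 to 3 and at 114, 131 and 123 FPKM in knockout-labelled libraries 1 to 3. The groups did not overlap, and the difference did not pass the test (0.25 ± 0.07 SE, limma adjusted p = 0.130). Fbl, the methyltransferase of the particle, had means of 46.6 ± 5.70 and 51.2 ± 1.32 FPKM, and Nop58 means of 16.8 ± 1.51 and 17.5 ± 4.49 FPKM. Both overlapped between groups, and Nop58 had the widest spread of the 3 in the knockout-labelled libraries, from 12.7 to 21.6 FPKM. The order per length, Nop56 above Fbl above Nop58, held in every library. Nop58 has 10758 bp of exon against 4209 bp for Fbl, and their estimated reads were alike, 4198 to 6035 and 4255 to 6472. The order of these 2 thus depends on the exon length used.

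The box H/ACA particle guides conversion of uridine to pseudouridine. Its smallest protein, Nop10, stood at 273 ± 34.6 and 297 ± 25.8 FPKM, and Nhp2 at 121 ± 18.7 and 126 ± 7.03 FPKM. Gar1 had values of 83.0, 75.8 and 93.6 FPKM in controls 1 to 3 and of 101, 103 and 91.9 FPKM in knockout-labelled libraries 1 to 3. The groups overlapped in Gar1 by control library 3 alone (limma adjusted p = 0.232). Dkc1, the pseudouridine synthase, had means of 44.7 ± 1.74 and 47.3 ± 8.35 FPKM (limma adjusted p = 0.836). In 0 of these 4 members were the groups separate, where they were separate upwards in 12.6% and downwards in 10.1% of all tested genes.

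**Figure D3:**
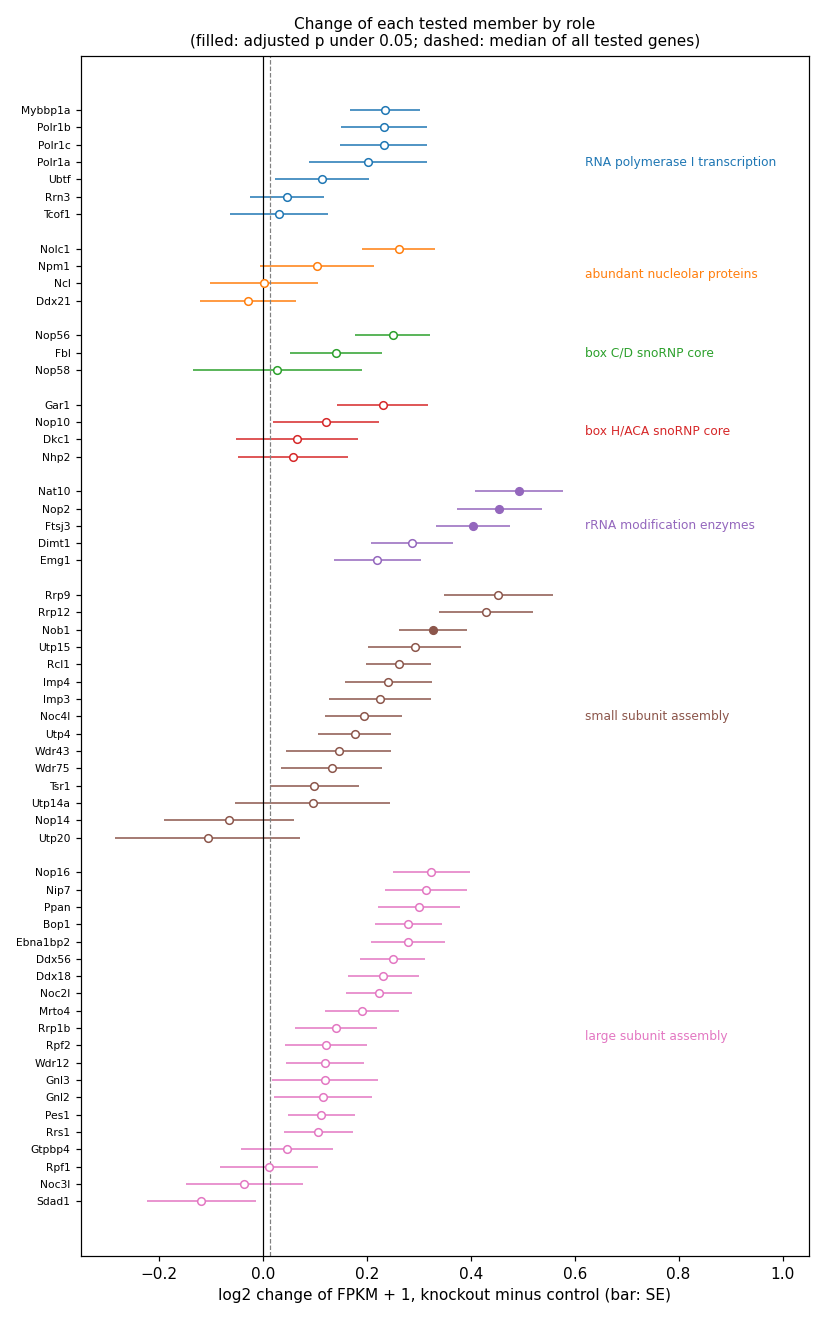
Log2 change of FPKM + 1, knockout-labelled minus control (horizontal axis), with limma's SE for each of the 58 tested members, grouped by role; filled points have an adjusted p below 0.05 and the dashed line is the median of all tested genes. The 5 members placed as free modification enzymes lie between 0.22 and 0.49. Fbl and Dkc1, the modifying enzymes of the guided particles, lie at 0.14 and 0.07, Ncl lies at 0 and 5 members lie below 0.

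Libraries of the group labelled knockout were not alike in all members. The median deviation of the 58 members from the control mean was 0.15, 0.25 and 0.19 on the log2 scale in knockout-labelled libraries 1 to 3, against -0.01, -0.02 and 0.04 in controls 1 to 3. Over all tested genes the same medians lay between -0.01 and 0.03. Knockout-labelled library 2 was the highest of the 6 libraries in 32 members (55.2%), and it was the highest in 16.1% of all tested genes. Knockout-labelled library 1 was the lowest of all 6 in 11 members (19.0%), close to its share of 19.4% over all tested genes. These 11 were Npm1, Ncl, Ddx21, Nop58, Dkc1, Utp20, Nop14, Noc3l, Gnl3, Sdad1 and Rpf1, named here after their values were seen. Knockout-labelled libraries 2 and 3 were the lowest in 0 members. Without knockout-labelled library 1, 57 of 58 fitted changes were above 0 and the median was 0.21.

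**Figure D4:**
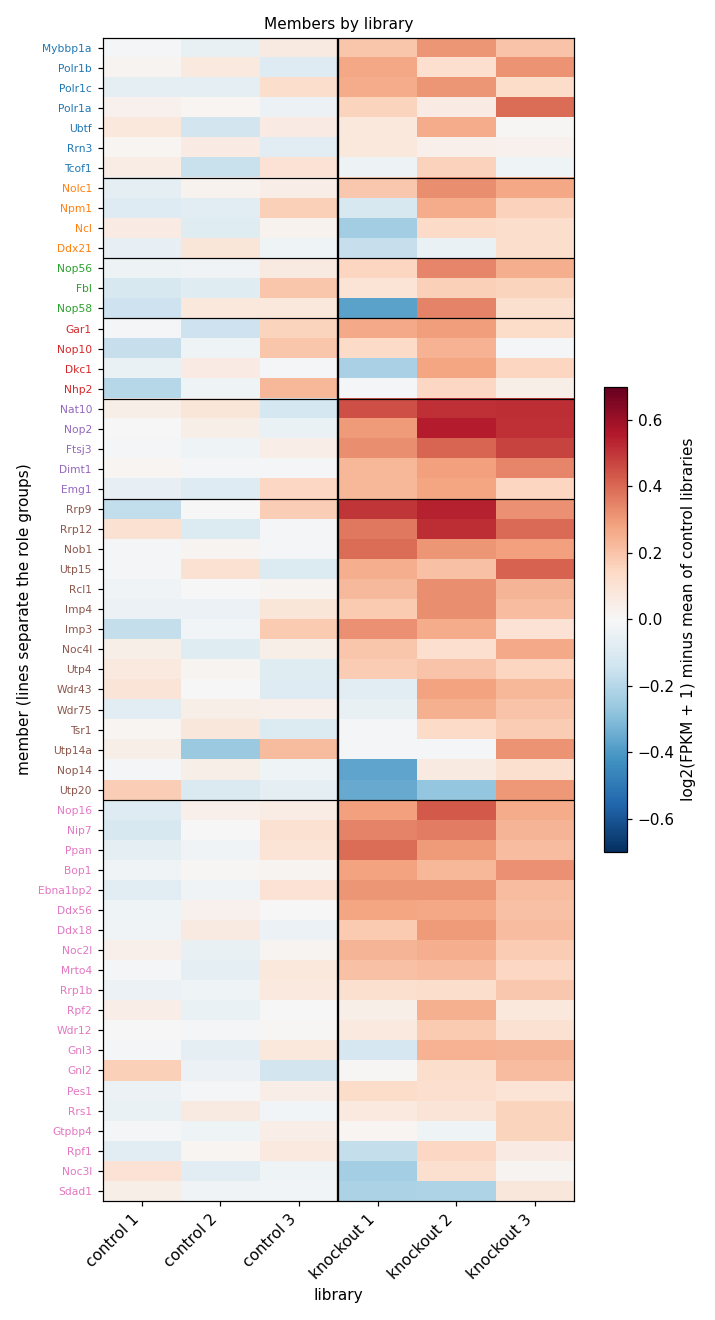
Each member (rows, grouped by role) in each library (columns), coloured by log2(FPKM + 1) minus the mean of the 3 control libraries. Most rows are red in all 3 knockout-labelled libraries. In knockout-labelled library 1, 41 of the 58 tested members lay above the control mean. The rows of Ncl, Nop58, Dkc1, Nop14, Utp20, Noc3l and Sdad1 are among those that are blue there.

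A second list held 123 other genes of ribosome biogenesis, among them further processome, exosome and RNase P subunits. Of these 121 were tested, and Pop5, a subunit of RNase P and RNase MRP, was the single gene called, from 15.0, 17.4 and 16.5 FPKM in controls 1 to 3 to 23.8, 21.3 and 22.4 FPKM in knockout-labelled libraries 1 to 3 (0.44 ± 0.09 SE, limma adjusted p = 0.0392). Leaving out any 1 of the 6 libraries ended the call of Pop5. This 1 call is 0.826% of the 121, where 0.566% of all tested genes were called higher. By limma 0 were lower, where 0.996% of all tested genes were. At an unadjusted p below 0.05, 34 (28.1%) were higher and 2 lower, where the shares over all tested genes were 8.92% and 7.46%. The fitted change was above 0 in 97 of 121 (80.2%), with a median of 0.11, against 53.4% of all tested genes. The groups did not overlap upwards in 39 (32.2%) and downwards in 4, where the shares over all tested genes were 12.6% and 10.1%. The small subunit factors of this list were above 0 in 36 of 39, the large subunit factors in 31 of 43, and the polymerase I genes in 6 of 10. With both lists taken as 1, 5 of 179 tested genes (2.79%) were called higher and 0 lower.

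The result depended on how libraries were scaled. The deposited FPKM of a library sum to between 373903 and 408725 in controls and to between 329434 and 339652 in the libraries labelled knockout. Rescaled so that each library sums to 1000000 (TPM), all genes shifted upwards by a median of 0.19, and 2016 genes were called higher and 128 lower in place of 71 and 125. On that scale 37 of 59 members were called higher and 0 lower, where 13.2% of all tested genes were called higher and 0.838% lower. With FPKM as deposited and a filter on a mean of at least 5 FPKM, 7 members were called higher and 0 lower, where 1.37% of all 8175 tested genes were higher and 1.85% lower. Set against the shift, the median of the members was 0.20 above that of all genes, close to the 0.17 found for FPKM as deposited, and 54 of 59 members lay above the median of all genes against 51 of 58.

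The members are spread over 19 chromosomes. The 4 on chromosome 2 near Thbs1 were Nop10 at 5.85 Mb, Polr1b at 11.0 Mb, Nop56 at 12.1 Mb and Nat10. Without these 4, 49 of 54 members had fitted changes above 0 with a median of 0.16, 29 had groups that did not overlap upwards, and 3 were called. The same shares over all tested genes were 53.4% above 0, 12.6% not overlapping upwards and 0.566% called higher. Members of each exon length were among the higher. Fitted changes were above 0 in 14 of 14 members with up to 2694 bp of exon, in 26 of 29 of middle length and in 13 of 15 with more than 5313 bp, with medians of 0.21, 0.18 and 0.12. Over all tested genes the medians in these classes were 0.01, 0.04 and -0.01.

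Promoter sequences were found for 51 of the 59 members. CACGTG lay within the 250 bases before a start site in 4 of them (7.84%), Nop2, Rrn3, Imp4 and Rpf2, and in 10.1% of the 8999 tested genes that have a promoter sequence. Rrn3 held it at both -215 and -48. CCGGAAG lay in 19.6% of the members and 16.7% of tested genes, GGGCGG in 66.7% and 64.5%, and TATAAA in 7.84% and 7.37%. The shares in the members were thus near those of tested genes for all 4 motifs. The median log2 change was 0.18 in the 4 members with CACGTG and 0.20 in the 46 tested members without it, and 4 members are few for such a comparison. Bases after the start site or more than 250 before it were not searched, so motifs there would be missed. Whether MYC acts on these genes was not tested. A gene counts as holding a motif if any of its listed start sites has it. Myc itself rose in the libraries labelled knockout, from 273, 248 and 225 FPKM in controls 1 to 3 to 387, 423 and 400.1 FPKM in knockout-labelled libraries 1 to 3 (limma adjusted p = 0.00446).

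Near-copies elsewhere in the genome could take or give reads. A transcript of another gene with at least 95% identity over at least 400 bases was found for 9 members, and none of the 4 called members was among them. That of Utp14a is no copy elsewhere: it belongs to 9530027J09Rik, which overlaps Utp14a on the opposite strand and whose level was not measured. The summed level of the copies reached 6.75% of the level of Dimt1 and 3.40% of that of Npm1, and was lower for the others with a measured copy. Exons of 25 members overlap exons of another gene, over 31.9% of the exon bases in Dimt1, 32.3% in Tsr1, 20.9% in Noc2l and at most 11.5% in the others. Nat10, Nop2, Ftsj3 and Nob1 have no such overlap.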

How the data were processed

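The authors deposited 1 table of FPKM values with 2 decimals, 1 column per library, and the table's name gives the unit. Per the labels' protocols, libraries were made from 2 ng of total RNA with the SMART-Seq v4 kit, a poly(A)-primed method without strand information. FastQC 0.11.5, edgeR, STAR and the builds GRCm38 and mm10 come from the submitters' processing notes, which give no roles here. The annotation and the counting are not stated in the labels. All 52183 identifiers matched GENCODE M21 (GRCm38), the source of positions and merged exon lengths. Depth is the read number that makes most values of genes with at most 400 bp of exon whole within 0.1 read (99.5% to 99.8% of values), and read numbers cover counting error only. Libraries of 1 group correlated at 0.983 to 0.987 across tested genes and none repeats another.

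FPKM are not counts, so log2(FPKM + 1) was fitted with limma 3.58.1 in R 4.3.3 (eBayes with trend, two-sided) across 12555 genes reaching 1 FPKM in 3 or more of 6 libraries. Group was the single term, with Benjamini-Hochberg adjustment over all genes. The fit was checked on simulated data, normal values for 12555 genes drawn independently with the means and the eBayes-adjusted variances of this comparison. The shifted genes were drawn from those with a mean log2(FPKM + 1) above 1.5, so recovery among lower genes was not tested. With 50 genes shifted at each fold of FPKM + 1, recovery was 12% at 1.25-fold, 82% at 1.5-fold, 98% at 2-fold and 100% at 4-fold, and 8 of 154 calls were false. Sequence identity was measured with BLAST 2.17.0, and promoters are RefSeq's. Named members are all those called, the 3 with the smallest p and the highest in each of 7 role groups, the one that failed the filter, and further ones given as values. The members and lists were chosen with earlier results of these data known. Alternatives were another pseudocount, 2 filters, 3 scalings, eBayes without trend, a replicate block and the omission of each library in turn.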

Additional observations from a re-analysis of the deposited data

How the results depend on the processing

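The members leaned higher under every alternative tried, and the number called did not hold. The median log2 change of the members was 0.40 after rescaling to TPM, 0.14 after quantile normalization and between 0.16 and 0.21 when each library was left out. Between 48 and 57 members were above 0 with a library left out, and 59 under TPM. Members called higher numbered 7 with a mean of at least 5 FPKM, 37 under TPM, 0 with no filter, 0 with eBayes without trend and between 0 and 2 with a library left out. In no alternative was a member called lower. Other pathway genes called higher numbered 3 with a mean of at least 5 FPKM, 60 under TPM, 0 with no filter, 0 by the median of ratios, 0 without trend and 0 with a library left out. All genes called higher and lower numbered 112 and 151 with a mean of at least 5 FPKM, 2016 and 128 under TPM, 8 and 16 with no filter and 24 and 65 without trend. With a library left out they numbered 16 to 38 and 43 to 77. No filter means 35246 genes were tested in place of 12555; otherwise the cause was not tested. The replicate block gave 0 members, 0 other pathway genes and 27 higher and 54 lower genes. Same-numbered libraries did not deviate together (correlations of -0.11, 0.04 and -0.08), so the numbers were not taken as pairs, and not every library correlated best with its own number. Thbs1 ranged from 0.19 to 1.26. Among members named, the log2 change of Ddx21 changed sign under TPM (0.17) and ranged from -0.104 to 0.0377 with a library left out, that of Dkc1 from -0.0382 to 0.21 and that of Nop58 from -0.13 to 0.23. None of these had passed the test. By the depth estimate at least 461 reads lay behind every value of a tested member.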
